A study of Mus musculus with 9 samples.

Results

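Mitosis genes encode the machinery that takes a cell from the end of G2 through division: the kinases that start mitosis, the kinetochore and spindle that align and separate chromosomes, the checkpoint that holds anaphase back, and the proteins that cut the cell apart. Of 46 such genes listed, 45 had a probe set that names them alone, and these 45 are the members described here, out of 18194 genes measured. They had 101 probe sets between them, of 45101 in all. For a gene with several probe sets the one with the greatest mean signal across the 9 arrays stood for it, a choice made without regard to group. Cyclin B1 (Ccnb1) had no such probe set and was not analysed here.

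The arrays measured bulk RNA of freshly harvested bone marrow from mouse leukemias on a C57/BL6 X 129 background, 3 arrays in each of 3 groups. Af10 deleted leukemias (CRE) were made from primary MLL-AF9 leukemias with homozygous floxed Af10 that had been transduced with a tdTomato vector expressing Cre recombinase, sorted, and injected into secondary recipient mice. Af10 floxed leukemias (MIT) were made the same way with the MSCV-IRES-tdTomato vector without Cre, so both MLL-AF9 groups share the fusion gene, the floxed alleles, the sort for tdTomato and the second transplant. Hoxa9-Meis1 leukemias were primary leukemias transduced with Hoxa9 and Meis1 and were not sorted. MLL-AF9 is a fusion of the histone methyltransferase MLL with AF9, AF10 (gene Mllt10) is a partner of the H3K79 methyltransferase DOT1L, and Hoxa9 and Meis1 are transcription factor genes downstream of MLL fusions. Only the deleted group carried Cre, so the deletion and Cre itself cannot be told apart, and in the comparisons with Hoxa9-Meis1 leukemias the oncogene cannot be told apart from sorting, vector and transplant generation. The labels do not say whether each array stands for a separate mouse, so the p-values rest on a spread between arrays that may be technical. Ages were not given.

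As background, cyclin A, cyclin B and CDK1 drive the G2-to-M transition, with the Polo-like and Aurora kinases acting beside them. Many genes of this set are transcribed as 1 programme late in the cell cycle: their promoters carry a cell cycle homology region (CHR) and often NF-Y-bound CCAAT boxes, and the MuvB core acts there, as the DREAM repressor in resting cells and together with B-Myb and FOXM1 in dividing ones. RNA of these genes in a bulk sample depends on how many cells are dividing and on how much RNA each of them holds. In bulk samples, fewer cells in division and less RNA per cell cannot be told apart.

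The promoters were examined for these elements, which the choice of members did not use. RefSeq promoter windows of assembly GRCm38.p6, from 250 bases before to 50 after the start of a gene, were available for 36 of the 45 members and for 14453 of the genes measured. A CHR was searched as TTTGAA or TTCGAA on either strand, and an NF-Y box as CCAAT on either strand. Overlapping matches were each counted. The windows of 4 members called in both comparisons with Hoxa9-Meis1 leukemias are shown, the 4 with the lowest adjusted p between Af10 floxed and Hoxa9-Meis1 leukemias of 10 such members whose window holds a CHR and at least 2 CCAAT boxes. They belong to Cenpa, the centromeric histone H3 variant (chr5:30666636-30666935 on the plus strand), Ccnb2, cyclin B2 (chr9:70421505-70421804 on the minus strand), Spc25, a subunit of the NDC80 kinetochore complex (chr2:69206164-69206463 on the minus strand), and Ect2, which activates RhoA for cytokinesis (chr3:27153829-27154128 on the minus strand). Capitals mark the CHR and CCAAT matches, written as they stand on the gene's strand:
Cenpa: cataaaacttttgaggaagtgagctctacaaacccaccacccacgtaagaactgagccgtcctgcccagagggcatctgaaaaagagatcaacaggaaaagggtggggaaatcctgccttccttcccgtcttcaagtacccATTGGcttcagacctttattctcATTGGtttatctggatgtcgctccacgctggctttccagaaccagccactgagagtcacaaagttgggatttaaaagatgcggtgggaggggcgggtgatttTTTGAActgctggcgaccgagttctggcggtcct
Ccnb2: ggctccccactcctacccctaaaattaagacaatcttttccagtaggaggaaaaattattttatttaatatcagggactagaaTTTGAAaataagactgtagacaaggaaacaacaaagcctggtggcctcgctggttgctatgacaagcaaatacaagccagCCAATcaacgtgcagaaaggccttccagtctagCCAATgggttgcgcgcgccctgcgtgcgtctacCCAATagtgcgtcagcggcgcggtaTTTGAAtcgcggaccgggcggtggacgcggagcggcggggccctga
Spc25: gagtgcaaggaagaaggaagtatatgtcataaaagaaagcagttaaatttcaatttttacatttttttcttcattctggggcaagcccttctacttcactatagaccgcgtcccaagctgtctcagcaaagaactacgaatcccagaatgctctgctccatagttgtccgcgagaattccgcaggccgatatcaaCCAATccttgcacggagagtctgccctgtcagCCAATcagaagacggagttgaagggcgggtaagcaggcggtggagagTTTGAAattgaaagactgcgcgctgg
Ect2: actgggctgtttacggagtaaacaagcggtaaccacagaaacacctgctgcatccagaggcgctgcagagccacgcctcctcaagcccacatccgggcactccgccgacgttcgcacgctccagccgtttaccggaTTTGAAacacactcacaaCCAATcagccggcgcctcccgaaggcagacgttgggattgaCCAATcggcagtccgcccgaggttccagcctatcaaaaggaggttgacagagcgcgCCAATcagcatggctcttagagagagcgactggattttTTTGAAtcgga

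In the Cenpa window the CHR began 17 bases into the transcript and the CCAAT boxes 109 and 86 bases before the start. In Spc25 the CHR began at base 25 of the transcript, with CCAAT boxes 55 and 23 bases before the start. Ccnb2 had 2 CHR matches, at base 5 of the transcript and 167 bases before the start, and 3 CCAAT boxes at 87, 54 and 21 bases before it. Ect2 had a CHR at base 40, another 114 bases before the start, and CCAAT boxes 96 and 55 bases before and 2 bases after it.

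Over all members with a window, 28 of 36 (77.8%) held a CHR, against 17.5% of the genes measured. In 26 of the 36 (72.2%) a CHR began within 50 bases of the start, against 4.62% of genes measured. A CCAAT box stood in 26 of 36 windows (72.2%) against 42.0%, and a CHR with at least 2 CCAAT boxes stood in 18 of 36 against 2.41%. The windows of Birc5, Cenpe, Mad2l1, Melk, Nek2, Nuf2, Nusap1 and Pttg1 held none of the CHR letters searched. A CHR was found in 17 of 24 members that were called in both comparisons with Hoxa9-Meis1 leukemias and in 8 of 9 called in neither. A match is a description of these letters and not evidence of binding.

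**Figure D1:**
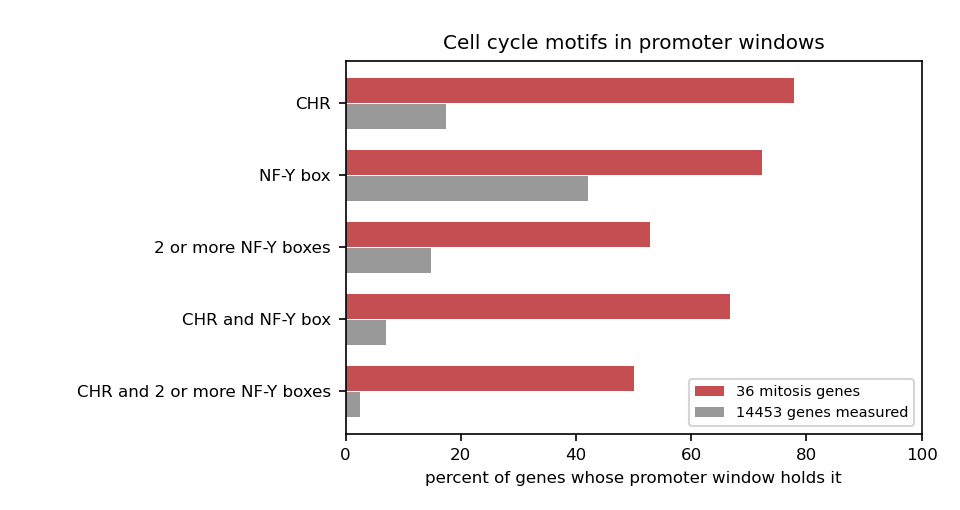
Percent of genes whose promoter window holds a CHR, an NF-Y box (CCAAT) or combinations of them, for 36 mitosis genes (red) and 14453 genes measured (grey). The CHR stood in 77.8% of member windows against 17.5%, and a CHR with at least 2 NF-Y boxes in 18 of 36 member windows against 2.41%.

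Levels below are log2(intensity + 1) of the deposited array intensities, and differences are log2 differences fitted with limma over all 9 arrays. The word called means a limma adjusted p under 0.05, adjusted over all 18194 genes. A deleted call and a floxed call are calls of those groups against Hoxa9-Meis1 leukemias. Arrays are given in the order of replicates 4, 5 and 6 for both MLL-AF9 groups and 1, 2 and 3 for Hoxa9-Meis1 leukemias. The labels were first checked on their own genes. Mllt10 averaged 10.00 ± 0.16 in Af10 deleted and 10.95 ± 0.40 in Af10 floxed leukemias (SD, n = 3 each), a difference of -0.95 (limma adjusted p = 0.0293), so its signal was lower but not lost. Hoxa9 averaged 9.15 in Af10 deleted, 12.16 in Af10 floxed and 13.74 in Hoxa9-Meis1 leukemias, and Meis1 averaged 8.84, 10.09 and 6.87 in the same groups. The low Meis1 signal goes against what the Hoxa9-Meis1 label names, and where its probes lie relative to the transduced copy is not given in the sources used here. The leukocyte gene Ptprc averaged 12.37 in Af10 deleted, 12.18 in Af10 floxed and 12.09 in Hoxa9-Meis1 leukemias, and the myeloid granule gene Mpo averaged 13.85, 13.87 and 14.19.

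Most mitosis genes were higher in both MLL-AF9 groups than in Hoxa9-Meis1 leukemias, and none passed the test between Af10 deleted and Af10 floxed leukemias. Between Af10 deleted and Af10 floxed leukemias 0 of 45 members were called, against 6.85% of all genes. Against Hoxa9-Meis1 leukemias, 30 of 45 members were higher in Af10 deleted leukemias and 0 lower, where 9.27% of all genes were higher and 6.23% lower (15.5% called). In Af10 floxed leukemias 31 of 45 were higher and 0 lower, where 5.58% of all genes were higher and 3.31% lower (8.89% called). Without Hoxa9-Meis1 replicate 1, which had the lowest level of its group for 27 of 45 members, the counts were 23 and 18. The share of all genes called in either direction also fell in that fit, to 8.46% and 3.74%. Both comparisons use the same 3 Hoxa9-Meis1 arrays. On 36 of 45 members all 6 MLL-AF9 arrays lay above all 3 Hoxa9-Meis1 arrays, against 9.44% of all genes.

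**Figure D2:**
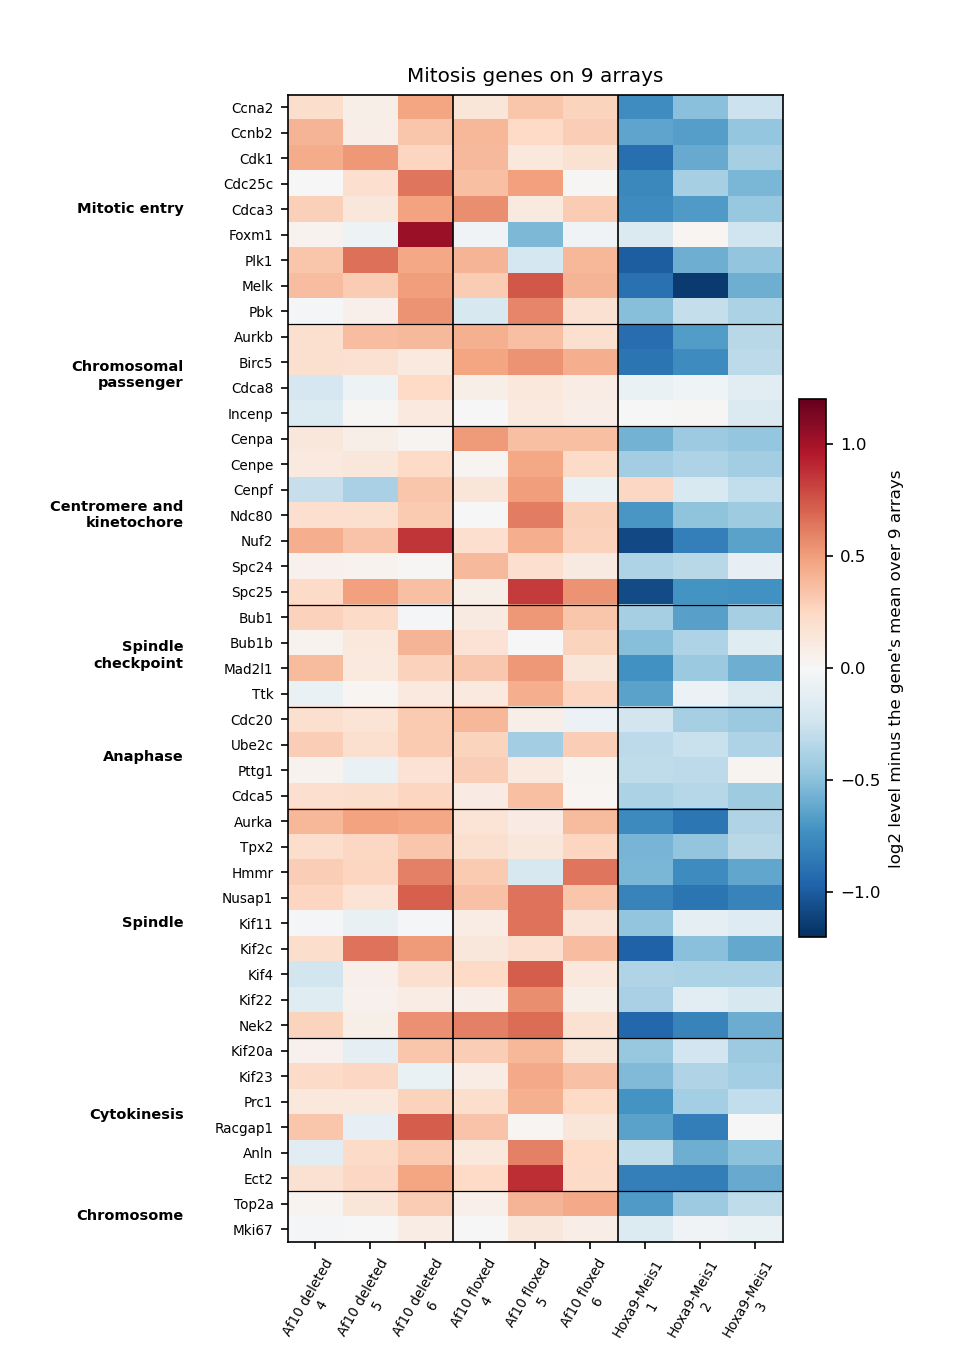
Log2 level of each of the 45 mitosis genes (rows, grouped by role) minus that gene's mean over the 9 arrays (columns), red above and blue below the mean. The Hoxa9-Meis1 columns are blue for nearly every gene, with Foxm1, Cdca8, Incenp, Cenpf and Mki67 among the rows that show little contrast between groups.

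Single arrays differed in how high the set stood. In Af10 deleted leukemias 24, 20 and 39 of the 45 members lay above their own median over the 9 arrays, in Af10 floxed leukemias 28, 32 and 33, and in Hoxa9-Meis1 leukemias 1, 1 and 0. Af10 deleted replicate 6 had the highest level of its group for 32 of 45 members and Af10 floxed replicate 5 for 27 of 45. Floxed replicate 5 also had the widest gap between the 3' and 5' probe sets of Gapdh, a gauge of RNA integrity, at 1.03 against 0.56 and 0.62 on the other Af10 floxed arrays. That gap was 0.44, 0.53 and 0.60 in Af10 deleted and 0.81, 0.77 and 0.67 in Hoxa9-Meis1 leukemias. The same gap of the actin probe sets did not set floxed replicate 5 apart. It was -0.37 there, inside the -0.41 to -0.34 spanned by the 9 arrays. Genes of chromosome 1, which carries 3 members, stood 0.16 above their means on deleted replicate 6 by median. Without deleted replicate 6 and floxed replicate 5 together, 27 members were higher in Af10 deleted and 28 in Af10 floxed leukemias than in Hoxa9-Meis1 leukemias. Of all genes, 14.4% and 6.19% were called in either direction in these comparisons. Between the MLL-AF9 groups 0 members were called in that fit, against 2.74% of all genes.

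In the comparison of Af10 deleted with Af10 floxed leukemias, loss of Af10 and Cre itself cannot be told apart. The median difference of the 45 members there was -0.07, against 0.06 over all genes. Differences were between -0.35 and 0.55, with 15 above 0 and 30 below. The 95% interval of the difference lay within 0.5 of 0 for 24 members and within 1 of 0 for 44, the exception being Foxm1, whose interval reached 1.17. An unadjusted p under 0.05 was found for 1 member, Cenpa, against 22.1% of all genes. The groups did not overlap for 5 of 45 members, 1 higher in Af10 deleted leukemias (Aurka) and 4 lower (Cenpa, Birc5, Kif11 and Spc24), against 25.9% of all genes in either direction. A difference that misses the threshold does not show that the groups are equal.

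Among the mitotic entry genes, 7 of 9 were higher than in Hoxa9-Meis1 leukemias in Af10 deleted and 7 of 9 in Af10 floxed leukemias. Cdk1, the kinase that drives entry into mitosis, had levels of 11.24, 11.32 and 11.06 in Af10 deleted, 11.19, 10.92 and 10.98 in Af10 floxed and 9.89, 10.19 and 10.40 in Hoxa9-Meis1 leukemias. All 6 MLL-AF9 values lay above the Hoxa9-Meis1 values. It was 1.05 higher in Af10 deleted than in Hoxa9-Meis1 leukemias (SE 0.15, 2.07-fold, limma adjusted p = 0.00243) and 0.87 higher in Af10 floxed leukemias (SE 0.15, 1.83-fold, limma adjusted p = 0.00986). Ccnb2, its cyclin B2 partner, had 11.47, 11.14 and 11.39 in Af10 deleted, 11.46, 11.30 and 11.36 in Af10 floxed and 10.43, 10.40 and 10.59 in Hoxa9-Meis1 leukemias. The MLL-AF9 groups overlapped with each other and both stood clear of the Hoxa9-Meis1 arrays. The difference from Hoxa9-Meis1 leukemias was 0.86 in Af10 deleted (SE 0.12, 1.81-fold, limma adjusted p = 0.00214) and 0.90 in Af10 floxed leukemias (SE 0.12, 1.86-fold, limma adjusted p = 0.00302).

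Melk, a kinase of the AMPK-related family made in dividing progenitors, was the entry gene with the largest difference. Its levels were 9.35, 9.28 and 9.49 in Af10 deleted, 9.29, 9.73 and 9.39 in Af10 floxed and 8.09, 7.83 and 8.40 in Hoxa9-Meis1 leukemias. The lowest MLL-AF9 array was well above the highest Hoxa9-Meis1 array. It was 1.27 higher in Af10 deleted than in Hoxa9-Meis1 leukemias (SE 0.17, 2.41-fold, limma adjusted p = 0.00158) and 1.36 higher in Af10 floxed leukemias (SE 0.17, 2.57-fold, limma adjusted p = 0.00211). Cdca3, a trigger of the degradation of the CDK1 inhibitor WEE1, had levels of 11.48, 11.33 and 11.67 in Af10 deleted, 11.75, 11.31 and 11.50 in Af10 floxed and 10.44, 10.51 and 10.73 in Hoxa9-Meis1 leukemias, again with no overlap between either MLL-AF9 group and the Hoxa9-Meis1 arrays. Its differences were 0.93 in Af10 deleted (limma adjusted p = 0.00393) and 0.96 in Af10 floxed leukemias (limma adjusted p = 0.00605). With the mean of its probe sets Cdca3 was not called, at 0.27 in Af10 deleted (adjusted p = 0.126) and 0.25 in Af10 floxed leukemias (adjusted p = 0.201). Plk1, the Polo-like kinase needed for spindle assembly and for leaving the checkpoint, had 10.24, 10.56 and 10.37 in Af10 deleted, 10.31, 9.70 and 10.30 in Af10 floxed and 8.91, 9.32 and 9.44 in Hoxa9-Meis1 leukemias. Floxed replicate 5 was the low array of its group, though above the Hoxa9-Meis1 values. It was 1.17 higher in Af10 deleted than in Hoxa9-Meis1 leukemias (SE 0.20, 2.25-fold, limma adjusted p = 0.00548) and 0.88 higher in Af10 floxed leukemias (SE 0.20, 1.84-fold, limma adjusted p = 0.0281). Plk1 lost its floxed call without floxed replicate 4 (adjusted p = 0.0798) or 6 (0.0797), without Hoxa9-Meis1 replicate 1 (0.107) or 2 (0.0706) or in a fit of the compared groups alone (0.0621).

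Foxm1, the transcription factor that works with MuvB on late cell cycle promoters, was called in no comparison. Its levels were 9.56, 9.45 and 10.55 in Af10 deleted, 9.47, 8.98 and 9.47 in Af10 floxed and 9.35, 9.54 and 9.28 in Hoxa9-Meis1 leukemias. Af10 deleted replicate 6 stood above the rest, and the other 8 arrays overlapped across groups. The difference between Af10 deleted and Af10 floxed leukemias was 0.55 (SE 0.28, 1.46-fold, limma adjusted p = 0.288), and 0.20 without deleted replicate 6. Another Foxm1 probe set was higher than in Hoxa9-Meis1 leukemias by 0.60 in Af10 deleted (limma adjusted p = 0.0123) and by 0.53 in Af10 floxed leukemias (limma adjusted p = 0.0303), so its probe sets disagree. Pbk, a mitotic kinase, was called in neither comparison, and Ccna2 (cyclin A2) and Cdc25c (the phosphatase that activates CDK1) were called in both. Ccna2, at 0.75 in Af10 deleted and 0.75 in Af10 floxed leukemias, lost its floxed call without floxed replicate 5 (adjusted p = 0.0597) or 6 (0.0507), without Hoxa9-Meis1 replicate 1 (0.0755) or 2 (0.0641) or with deleted array 6 and floxed array 5 both left out (0.0517). Cdc25c, at 0.86 in Af10 deleted and 0.87 in Af10 floxed leukemias, lost its deleted call without Hoxa9-Meis1 replicate 1 (adjusted p = 0.0743) and its floxed call without floxed replicate 4 (adjusted p = 0.0695) or 5 (0.0836) or without Hoxa9-Meis1 replicate 1 (0.106) or 2 (0.0519).

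**Figure D3:**
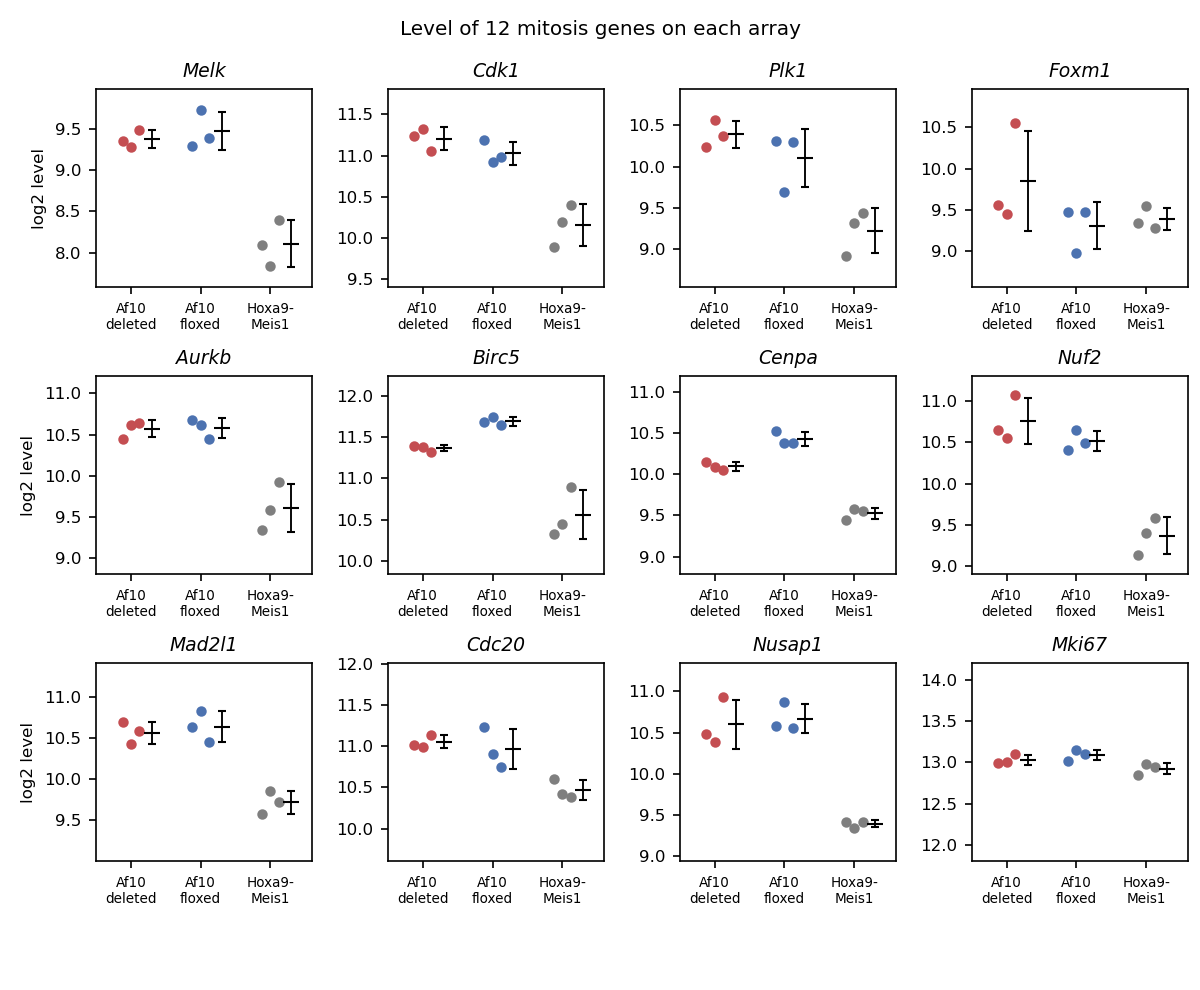
Log2 level on each array of 12 mitosis genes, 1 panel a gene, with Af10 deleted (red), Af10 floxed (blue) and Hoxa9-Meis1 (grey) leukemias and the mean with SD (n = 3) beside each group's points. In Melk, Nuf2 and Nusap1 the Hoxa9-Meis1 points lie well below both other groups, whereas in Mki67 all 9 lie between 12.85 and 13.15 and in Foxm1 the groups overlap.

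The chromosomal passenger complex, which corrects wrong attachments of chromosomes to the spindle, had 2 of 4 subunits higher in each MLL-AF9 group than in Hoxa9-Meis1 leukemias. Its kinase Aurkb had levels of 10.45, 10.62 and 10.64 in Af10 deleted, 10.68, 10.61 and 10.45 in Af10 floxed and 9.34, 9.59 and 9.92 in Hoxa9-Meis1 leukemias. Both MLL-AF9 groups lay above the Hoxa9-Meis1 arrays and overlapped with each other. It was 0.96 higher in Af10 deleted than in Hoxa9-Meis1 leukemias (SE 0.15, 1.94-fold, limma adjusted p = 0.00402) and 0.97 higher in Af10 floxed leukemias (SE 0.15, 1.95-fold, limma adjusted p = 0.00669). Birc5 (survivin), the subunit that docks the complex on chromatin, had 11.40, 11.38 and 11.32 in Af10 deleted, 11.68, 11.74 and 11.64 in Af10 floxed and 10.33, 10.45 and 10.89 in Hoxa9-Meis1 leukemias. The 3 groups did not overlap, with Af10 floxed highest and Hoxa9-Meis1 lowest. It was 0.81 higher in Af10 deleted than in Hoxa9-Meis1 leukemias (SE 0.15, 1.75-fold, limma adjusted p = 0.00676) and 1.13 higher in Af10 floxed leukemias (SE 0.15, 2.19-fold, limma adjusted p = 0.00242). The difference between Af10 deleted and Af10 floxed leukemias was -0.32 (limma adjusted p = 0.237). Cdca8 (borealin) and Incenp (the scaffold) were called in neither comparison with Hoxa9-Meis1 leukemias, at differences of 0.08 and 0.05 in Af10 deleted and 0.18 and 0.12 in Af10 floxed leukemias. Cdca8 passed in Af10 floxed leukemias with the mean of its probe sets (difference 0.40, adjusted p = 0.0438).

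Of the 7 centromere and kinetochore genes, 5 were higher in Af10 deleted and 6 in Af10 floxed leukemias than in Hoxa9-Meis1 leukemias. Cenpa, the histone variant that marks the centromere, had levels of 10.15, 10.08 and 10.05 in Af10 deleted, 10.52, 10.38 and 10.38 in Af10 floxed and 9.45, 9.58 and 9.55 in Hoxa9-Meis1 leukemias. All 3 groups were apart, in the order Af10 floxed, Af10 deleted, Hoxa9-Meis1. It was 0.57 higher in Af10 deleted than in Hoxa9-Meis1 leukemias (SE 0.10, 1.48-fold, limma adjusted p = 0.00599) and 0.90 higher in Af10 floxed leukemias (SE 0.10, 1.87-fold, limma adjusted p = 0.00118). Its difference between Af10 deleted and Af10 floxed leukemias, -0.33 (95% interval -0.56 to -0.10, limma adjusted p = 0.0886), missed the threshold, with adjusted p between 0.0385 and 0.23 over the alternatives. It passed on a log2(value + 32) scale (adjusted p = 0.039) and with the mean of its probe sets (-0.48, adjusted p = 0.0385). All 3 Cenpa probe sets were lower in Af10 deleted leukemias, with differences of -0.60, -0.52 and -0.33, and none was called. With the mean of its probe sets, Cenpa was no longer called between Af10 deleted and Hoxa9-Meis1 leukemias (difference 0.17, adjusted p = 0.393).

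Nuf2 and Spc25 belong to the NDC80 complex, which binds spindle microtubules at the kinetochore. Nuf2 had levels of 10.65, 10.56 and 11.07 in Af10 deleted, 10.41, 10.65 and 10.49 in Af10 floxed and 9.13, 9.40 and 9.58 in Hoxa9-Meis1 leukemias. It was 1.39 higher in Af10 deleted than in Hoxa9-Meis1 leukemias (SE 0.17, 2.62-fold, limma adjusted p = 0.000915) and 1.15 higher in Af10 floxed leukemias (SE 0.17, 2.22-fold, limma adjusted p = 0.00442). Deleted replicate 6 was the highest of the 9 arrays, and Nuf2 is 1 of the 3 members on chromosome 1. Spc25 had 9.47, 9.73 and 9.60 in Af10 deleted, 9.31, 10.08 and 9.79 in Af10 floxed and 8.17, 8.52 and 8.51 in Hoxa9-Meis1 leukemias. Floxed replicates 4 and 5 were the lowest and the highest of the MLL-AF9 arrays, and every one of the 6 lay above the Hoxa9-Meis1 values. It was 1.20 higher in Af10 deleted than in Hoxa9-Meis1 leukemias (SE 0.20, 2.3-fold, limma adjusted p = 0.00417) and 1.32 higher in Af10 floxed leukemias (SE 0.20, 2.5-fold, limma adjusted p = 0.0046). With the mean of its probe sets Spc25 differed by 0.73 in Af10 deleted leukemias and stayed called. Of the other subunits, Ndc80 was called in both comparisons and Spc24 only in Af10 floxed leukemias, at 0.50 (limma adjusted p = 0.0313) against 0.31 (limma adjusted p = 0.12) in Af10 deleted leukemias. Spc24 itself was not called between the MLL-AF9 groups (-0.19, limma adjusted p = 0.374). The floxed call on Spc24 ended in 8 of 18 alternatives, without deleted replicate 4 (adjusted p = 0.0518) or 5 (0.0515), without floxed replicate 4 (0.0856) or 5 (0.0626), without Hoxa9-Meis1 replicate 1 (0.121) or 2 (0.113), in a fit of the compared groups alone (0.0741) or with deleted array 6 and floxed array 5 both left out (0.0764). In Af10 deleted leukemias Spc24 passed with array weights (adjusted p = 0.0421). Ndc80 (0.77 in Af10 deleted and 0.83 in Af10 floxed leukemias) lost both calls without Hoxa9-Meis1 replicate 1 (adjusted p = 0.0548 and 0.063). The motor Cenpe was called in both, and Cenpf, a large protein of the outer kinetochore, in neither, with overlapping values in all 3 groups. Cenpe (0.57 in Af10 deleted and 0.64 in Af10 floxed leukemias) also lost both without that array (adjusted p = 0.0584 and 0.0606).

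Of 4 genes of the spindle checkpoint, which blocks anaphase until every kinetochore is attached, 3 were higher in Af10 deleted and 2 in Af10 floxed leukemias than in Hoxa9-Meis1 leukemias. Mad2l1, which encodes the MAD2 inhibitor of CDC20, had levels of 10.69, 10.43 and 10.58 in Af10 deleted, 10.63, 10.83 and 10.45 in Af10 floxed and 9.58, 9.86 and 9.72 in Hoxa9-Meis1 leukemias. The MLL-AF9 arrays overlapped among themselves and stood above all Hoxa9-Meis1 arrays. It was 0.84 higher in Af10 deleted than in Hoxa9-Meis1 leukemias (SE 0.14, 1.8-fold, limma adjusted p = 0.004) and 0.92 higher in Af10 floxed leukemias (SE 0.14, 1.89-fold, limma adjusted p = 0.00473). Bub1, the kinetochore kinase that recruits other checkpoint proteins, had 9.44, 9.40 and 9.15 in Af10 deleted, 9.28, 9.69 and 9.50 in Af10 floxed and 8.77, 8.51 and 8.76 in Hoxa9-Meis1 leukemias. It was 0.65 higher in Af10 deleted than in Hoxa9-Meis1 leukemias (SE 0.14, 1.57-fold, limma adjusted p = 0.0173) and 0.81 higher in Af10 floxed leukemias (SE 0.14, 1.75-fold, limma adjusted p = 0.0112). The groups of MLL-AF9 and Hoxa9-Meis1 arrays did not overlap in Bub1. Bub1 lost its deleted call without deleted replicate 4 (adjusted p = 0.0625) or 5 (0.0586) or without Hoxa9-Meis1 replicate 2 (0.0697), and with the mean of its probe sets it differed by 1.29 in Af10 deleted and 1.47 in Af10 floxed leukemias. Bub1b (BUBR1) was called only in Af10 deleted leukemias, at 0.53 (limma adjusted p = 0.038) against 0.49 (limma adjusted p = 0.0704) in Af10 floxed leukemias, and its difference between these groups was 0.04. The deleted call on Bub1b ended in 10 of 18 alternatives, without deleted replicate 4 (adjusted p = 0.0523), 5 (0.0759) or 6 (0.108), without floxed replicate 4 (0.0525), without Hoxa9-Meis1 replicate 1 (0.137) or 2 (0.113), after quantile normalization (0.0684), with the mean of its probe sets (difference 0.37, 0.0665), in a fit of the compared groups alone (0.0571) or with deleted array 6 and floxed array 5 both left out (0.0869). In Af10 floxed leukemias Bub1b passed without Hoxa9-Meis1 replicate 3 (adjusted p = 0.0477) or with array weights (0.0159). The kinase Ttk (MPS1) had levels of 9.41, 9.52 and 9.61 in Af10 deleted, 9.61, 9.93 and 9.75 in Af10 floxed and 8.85, 9.43 and 9.32 in Hoxa9-Meis1 leukemias. Its Af10 deleted values overlapped with the Hoxa9-Meis1 values and it was called in no comparison.

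Of the genes of the anaphase trigger, 2 of 4 were higher in Af10 deleted and 1 of 4 in Af10 floxed leukemias. Cdc20, the activator of the anaphase-promoting complex, had levels of 11.02, 10.99 and 11.14 in Af10 deleted, 11.23, 10.90 and 10.75 in Af10 floxed and 10.61, 10.43 and 10.38 in Hoxa9-Meis1 leukemias. Every MLL-AF9 array was above every Hoxa9-Meis1 array by a narrow margin. The difference was 0.58 in Af10 deleted (SE 0.14, 1.49-fold, limma adjusted p = 0.0238) and 0.49 in Af10 floxed leukemias (SE 0.14, 1.4-fold, limma adjusted p = 0.0628), past the threshold only in Af10 deleted leukemias, and the difference between these was 0.09. Cdc20 lost its deleted call in 7 of 18 alternatives, without deleted replicate 4 (adjusted p = 0.0604), 5 (0.0542) or 6 (0.0687), without Hoxa9-Meis1 replicate 2 (0.0821) or 3 (0.062), after quantile normalization (0.0523) or with deleted array 6 and floxed array 5 both left out (0.0748), and passed in Af10 floxed leukemias without floxed replicate 6 (adjusted p = 0.0479) or with the mean of its probe sets (difference 0.46, 0.0403). Cdca5 (sororin), which protects cohesion between sister chromatids, had 11.07, 11.07 and 11.12 in Af10 deleted, 10.96, 11.23 and 10.89 in Af10 floxed and 10.48, 10.52 and 10.43 in Hoxa9-Meis1 leukemias. It was 0.61 higher in Af10 deleted than in Hoxa9-Meis1 leukemias (SE 0.11, 1.53-fold, limma adjusted p = 0.00779) and 0.55 higher in Af10 floxed leukemias (SE 0.11, 1.46-fold, limma adjusted p = 0.0198). The Hoxa9-Meis1 arrays were the 3 lowest for Cdca5. Its floxed call ended without Hoxa9-Meis1 replicate 1 (adjusted p = 0.0717) or 2 (0.0593) or in a fit of the compared groups alone (0.0519). Ube2c, the ubiquitin-conjugating enzyme of that complex, had 13.13, 13.03 and 13.15 in Af10 deleted, 13.10, 12.42 and 13.13 in Af10 floxed and 12.52, 12.57 and 12.47 in Hoxa9-Meis1 leukemias. Floxed replicate 5 lay below all Hoxa9-Meis1 arrays while the other 5 MLL-AF9 arrays lay above them, and the gene was not called. Without floxed replicate 5, Ube2c was called at 0.59 in Af10 deleted (adjusted p = 0.00478) and at 0.60 in Af10 floxed leukemias (adjusted p = 0.0168). Pttg1 (securin) was called in neither comparison.

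Spindle genes were higher than in Hoxa9-Meis1 leukemias in 6 of 9 cases in Af10 deleted and 7 of 9 in Af10 floxed leukemias. Nusap1, which bundles spindle microtubules, had levels of 10.48, 10.38 and 10.93 in Af10 deleted, 10.58, 10.88 and 10.55 in Af10 floxed and 9.42, 9.34 and 9.42 in Hoxa9-Meis1 leukemias. The Hoxa9-Meis1 arrays lay close together and below the rest. It was 1.21 higher in Af10 deleted than in Hoxa9-Meis1 leukemias (SE 0.16, 2.31-fold, limma adjusted p = 0.00148) and 1.27 higher in Af10 floxed leukemias (SE 0.16, 2.42-fold, limma adjusted p = 0.00211). Aurka, the kinase that matures centrosomes, had 11.03, 11.12 and 11.10 in Af10 deleted, 10.80, 10.73 and 11.02 in Af10 floxed and 9.87, 9.77 and 10.27 in Hoxa9-Meis1 leukemias. Its 3 Af10 deleted values were the 3 highest, the Af10 floxed values came next, and the first pair of groups differed by 0.23 (limma adjusted p = 0.396). It was 1.11 higher in Af10 deleted than in Hoxa9-Meis1 leukemias (SE 0.15, 2.16-fold, limma adjusted p = 0.00151) and 0.88 higher in Af10 floxed leukemias (SE 0.15, 1.84-fold, limma adjusted p = 0.00841). With the mean of its probe sets these differences were 0.64 and 0.41, both called.

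Tpx2, the activator of Aurora A on the spindle, had levels of 10.70, 10.73 and 10.82 in Af10 deleted, 10.68, 10.63 and 10.75 in Af10 floxed and 9.93, 10.02 and 10.16 in Hoxa9-Meis1 leukemias. It was 0.72 higher in Af10 deleted than in Hoxa9-Meis1 leukemias (SE 0.10, 1.64-fold, limma adjusted p = 0.00249) and 0.65 higher in Af10 floxed leukemias (SE 0.10, 1.57-fold, limma adjusted p = 0.00673). With the mean of its probe sets Tpx2 differed by 0.39 in Af10 deleted leukemias (adjusted p = 0.0409) and was not called in Af10 floxed leukemias (0.28, adjusted p = 0.145). The MLL-AF9 groups overlapped in Tpx2 and both were clear of the Hoxa9-Meis1 arrays. Kif2c (MCAK), a kinesin that takes microtubules apart, had 10.49, 10.94 and 10.80 in Af10 deleted, 10.42, 10.49 and 10.66 in Af10 floxed and 9.31, 9.78 and 9.67 in Hoxa9-Meis1 leukemias. It was 1.15 higher in Af10 deleted than in Hoxa9-Meis1 leukemias (SE 0.16, 2.23-fold, limma adjusted p = 0.00207) and 0.93 higher in Af10 floxed leukemias (SE 0.16, 1.91-fold, limma adjusted p = 0.00986). Hoxa9-Meis1 replicate 1 was its lowest array. The floxed difference of Kif2c was 0.61 with the mean of its probe sets, and still called. Nek2, which separates centrosomes, had levels of 9.41, 9.20 and 9.69 in Af10 deleted, 9.74, 9.81 and 9.32 in Af10 floxed and 8.20, 8.34 and 8.54 in Hoxa9-Meis1 leukemias. All MLL-AF9 arrays were above the Hoxa9-Meis1 values. It was 1.07 higher in Af10 deleted than in Hoxa9-Meis1 leukemias (SE 0.18, 2.1-fold, limma adjusted p = 0.00437) and 1.27 higher in Af10 floxed leukemias (SE 0.18, 2.4-fold, limma adjusted p = 0.00353).

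Kif11 (Eg5), the motor that pushes spindle poles apart, had levels of 11.31, 11.24 and 11.31 in Af10 deleted, 11.43, 11.99 and 11.49 in Af10 floxed and 10.86, 11.22 and 11.18 in Hoxa9-Meis1 leukemias. Floxed replicate 5 stood highest and the Af10 deleted values were close to the upper Hoxa9-Meis1 values. This probe set was not called, at 0.20 in Af10 deleted (limma adjusted p = 0.494) and 0.55 in Af10 floxed leukemias (limma adjusted p = 0.0766), while its other 2 probe sets were called in both, at 0.65 and 0.66 in Af10 deleted and 0.76 and 0.80 in Af10 floxed leukemias. The chromokinesin Kif4 had 8.77, 9.05 and 9.18 in Af10 deleted, 9.23, 9.72 and 9.12 in Af10 floxed and 8.63, 8.61 and 8.61 in Hoxa9-Meis1 leukemias. It had the most negative difference of the 45 between Af10 deleted and Af10 floxed leukemias, -0.35 (limma adjusted p = 0.265), and was called against Hoxa9-Meis1 leukemias only in Af10 floxed leukemias (0.74, limma adjusted p = 0.0299; 0.38, limma adjusted p = 0.18 in Af10 deleted leukemias). Hmmr, a spindle protein that binds hyaluronan, was called in both comparisons and the chromokinesin Kif22 in neither. Kif4 lost its floxed call without floxed replicate 4 (adjusted p = 0.0504) or 5 (0.0576), without Hoxa9-Meis1 replicate 1 (0.0963), 2 (0.0932) or 3 (0.0591) or in a fit of the compared groups alone (0.0521). Hmmr, at 1.03 in Af10 deleted and 0.90 in Af10 floxed leukemias, lost its floxed call without floxed replicate 4 (adjusted p = 0.0695) or 6 (0.0598), without Hoxa9-Meis1 replicate 1 (0.0757), 2 (0.0958) or 3 (0.0512) or in a fit of the compared groups alone (0.0563). Kif22, at 0.24 in Af10 deleted and 0.48 in Af10 floxed leukemias, passed in both with the mean of its probe sets (0.54 and 0.82).

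**Figure D4:**
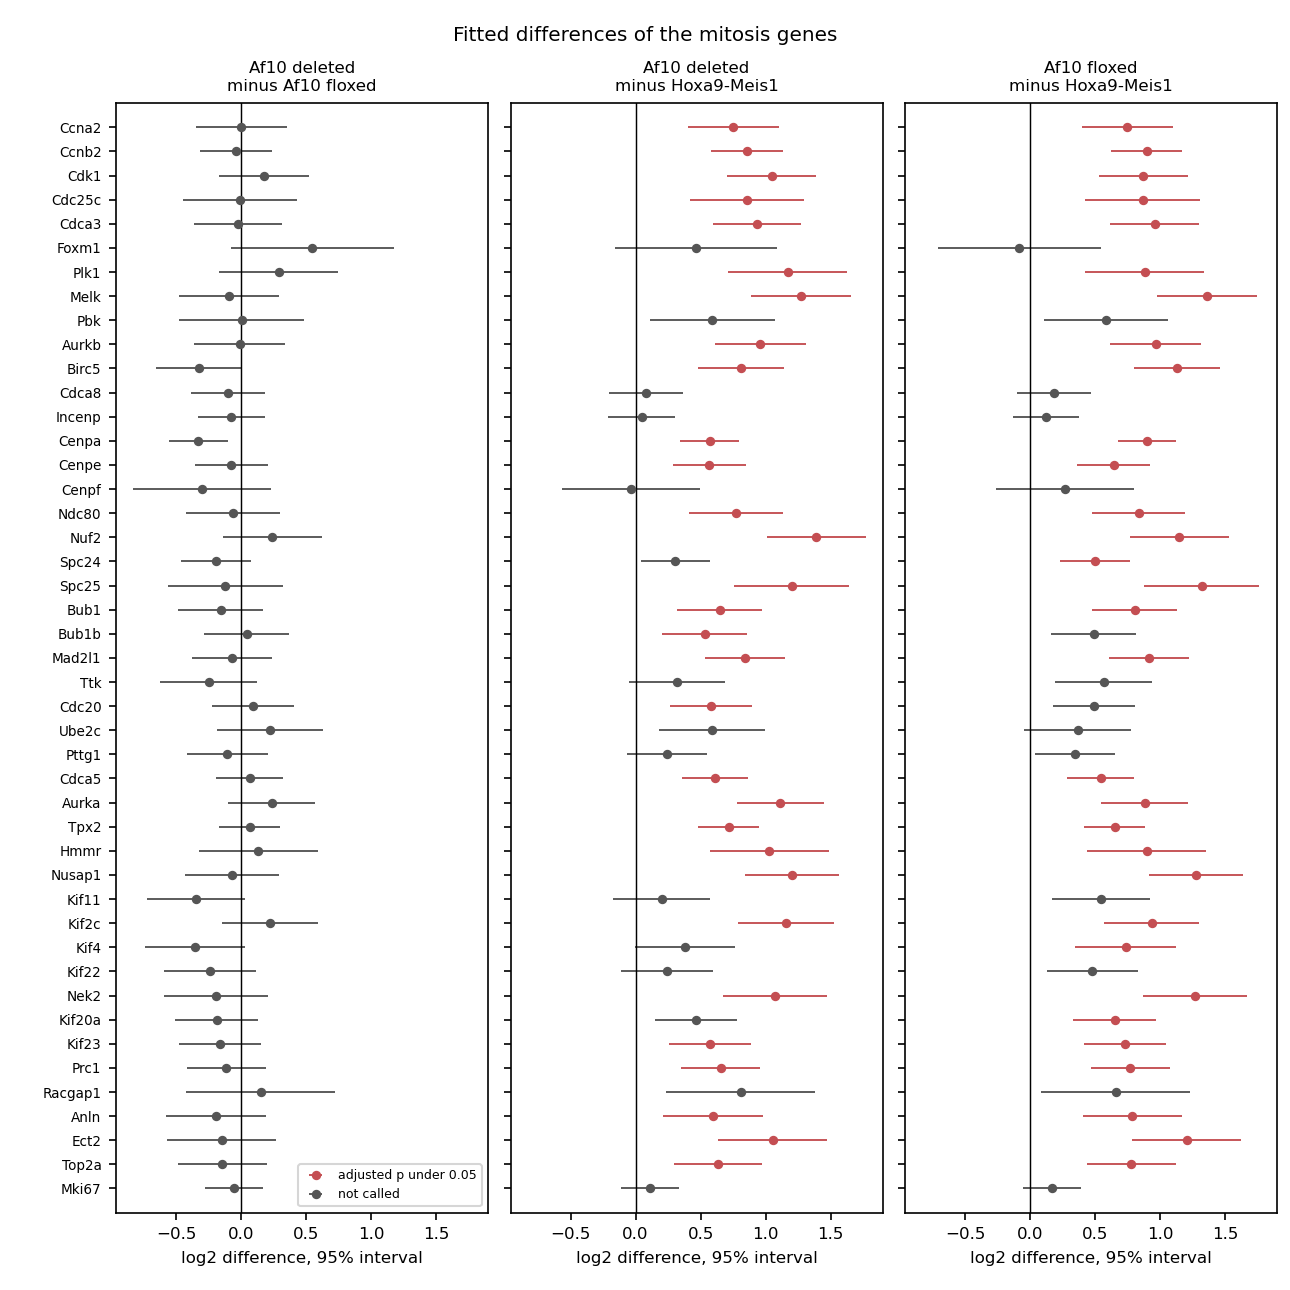
Fitted log2 difference of each of the 45 mitosis genes with its 95% interval in the 3 comparisons, red where the limma adjusted p was under 0.05. All points are grey around 0 in the left panel, whereas 30 and 31 of 45 are red and right of 0 in the middle and right panels.

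Of 6 cytokinesis genes, 4 were higher in Af10 deleted and 5 in Af10 floxed leukemias than in Hoxa9-Meis1 leukemias. Ect2, whose promoter is shown above, had levels of 9.51, 9.58 and 9.80 in Af10 deleted, 9.56, 10.21 and 9.56 in Af10 floxed and 8.50, 8.50 and 8.72 in Hoxa9-Meis1 leukemias. Floxed replicate 5 was highest by a clear margin, and the other 5 MLL-AF9 arrays were close together above the Hoxa9-Meis1 values. It was 1.05 higher in Af10 deleted than in Hoxa9-Meis1 leukemias (SE 0.19, 2.08-fold, limma adjusted p = 0.00596) and 1.20 higher in Af10 floxed leukemias (SE 0.19, 2.3-fold, limma adjusted p = 0.00546). Anln (anillin), the scaffold of the contractile ring, had 9.04, 9.41 and 9.49 in Af10 deleted, 9.31, 9.79 and 9.42 in Af10 floxed and 8.88, 8.59 and 8.69 in Hoxa9-Meis1 leukemias. It was 0.59 higher in Af10 deleted than in Hoxa9-Meis1 leukemias (SE 0.17, 1.51-fold, limma adjusted p = 0.0442) and 0.79 higher in Af10 floxed leukemias (SE 0.17, 1.73-fold, limma adjusted p = 0.0218). Deleted replicate 4 came closest to the Hoxa9-Meis1 values in Anln. The deleted call on Anln ended in 9 of 18 alternatives, without deleted replicate 5 (adjusted p = 0.126) or 6 (0.126), without floxed replicate 6 (0.0617), without Hoxa9-Meis1 replicate 1 (0.0718), 2 (0.145) or 3 (0.0947), with the mean of its probe sets (difference 0.51, 0.0708), with a trended robust variance (0.0573) or with deleted array 6 and floxed array 5 both left out (0.073). Its floxed call ended in 5 of 18 alternatives, without floxed replicate 5 (adjusted p = 0.0598), without Hoxa9-Meis1 replicate 1 (0.0513) or 2 (0.0838), with the mean of its probe sets (difference 0.60, 0.0524) or with deleted array 6 and floxed array 5 both left out (0.0567). Prc1, which bundles the central spindle, and the kinesin Kif23 of the centralspindlin complex were called in both comparisons. Kif23, at 0.57 in Af10 deleted and 0.73 in Af10 floxed leukemias, lost its deleted call without deleted replicate 4 (adjusted p = 0.0835) or 5 (0.0836) or without Hoxa9-Meis1 replicate 1 (0.0942) or 2 (0.0589) and its floxed call without Hoxa9-Meis1 replicate 1 (adjusted p = 0.0622). The midzone kinesin Kif20a was called only in Af10 floxed leukemias (0.65, limma adjusted p = 0.0225; 0.46, limma adjusted p = 0.0561 in Af10 deleted leukemias), at -0.19 between the MLL-AF9 groups (limma adjusted p = 0.48). Kif20a lost its floxed call without floxed replicate 4 (adjusted p = 0.0581) or 5 (0.0671) or without Hoxa9-Meis1 replicate 1 (0.0917) or 3 (0.0515), and passed in Af10 deleted leukemias without deleted replicate 5 (adjusted p = 0.0473), on a log2(value + 32) scale (0.0468) or with the mean of its probe sets (difference 0.46, 0.0468). Racgap1, the other centralspindlin subunit, was called in neither, at 0.81 in Af10 deleted and 0.66 in Af10 floxed leukemias. It passed in Af10 deleted leukemias without deleted replicate 5 (adjusted p = 0.0401), without Hoxa9-Meis1 replicate 3 (0.0192) or with array weights (0.0212), and in Af10 floxed leukemias without Hoxa9-Meis1 replicate 3 (adjusted p = 0.0457) or with array weights (0.0421).

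The chromosome proteins differed in whether they were called. Top2a, the topoisomerase that untangles sister chromatids, had levels of 11.10, 11.22 and 11.38 in Af10 deleted, 11.13, 11.48 and 11.53 in Af10 floxed and 10.39, 10.64 and 10.77 in Hoxa9-Meis1 leukemias. All MLL-AF9 values were above all Hoxa9-Meis1 values. It was 0.63 higher in Af10 deleted than in Hoxa9-Meis1 leukemias (SE 0.15, 1.55-fold, limma adjusted p = 0.0227) and 0.78 higher in Af10 floxed leukemias (SE 0.15, 1.71-fold, limma adjusted p = 0.015). Top2a lost its deleted call without deleted replicate 5 (adjusted p = 0.0609) or 6 (0.0691), without Hoxa9-Meis1 replicate 1 (0.0885) or 2 (0.0635), with the mean of its probe sets (difference 0.34, 0.0647) or with deleted array 6 and floxed array 5 both left out (0.0724). Its floxed call ended without floxed replicate 5 (adjusted p = 0.0503), without Hoxa9-Meis1 replicate 1 (0.0639), with the mean of its probe sets (difference 0.35, 0.0782) or with deleted array 6 and floxed array 5 both left out (0.0549). Mki67, which coats mitotic chromosomes and encodes the proliferation marker Ki-67, had 12.99, 13.01 and 13.10 in Af10 deleted, 13.02, 13.15 and 13.10 in Af10 floxed and 12.85, 12.98 and 12.94 in Hoxa9-Meis1 leukemias. All 9 values lay between 12.85 and 13.15, and every MLL-AF9 value lay above every Hoxa9-Meis1 value by a narrow margin. Its differences from Hoxa9-Meis1 leukemias were 0.11 in Af10 deleted (SE 0.10, 1.08-fold, limma adjusted p = 0.528) and 0.17 in Af10 floxed leukemias (SE 0.10, 1.12-fold, limma adjusted p = 0.354).

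The median difference of the 45 members from Hoxa9-Meis1 leukemias was 0.65 in Af10 deleted leukemias, against 0.05 over all genes, and 0.77 in Af10 floxed leukemias, against -0.01. A difference over 1 was found for 11 members in Af10 deleted and 7 in Af10 floxed leukemias, and the largest were 1.39 (Nuf2) and 1.36 (Melk). Values did not overlap with Hoxa9-Meis1 leukemias for 37 members in Af10 deleted (21.7% of all genes) and 40 in Af10 floxed leukemias (15.4% of all genes), each time higher.

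**Figure D5:**
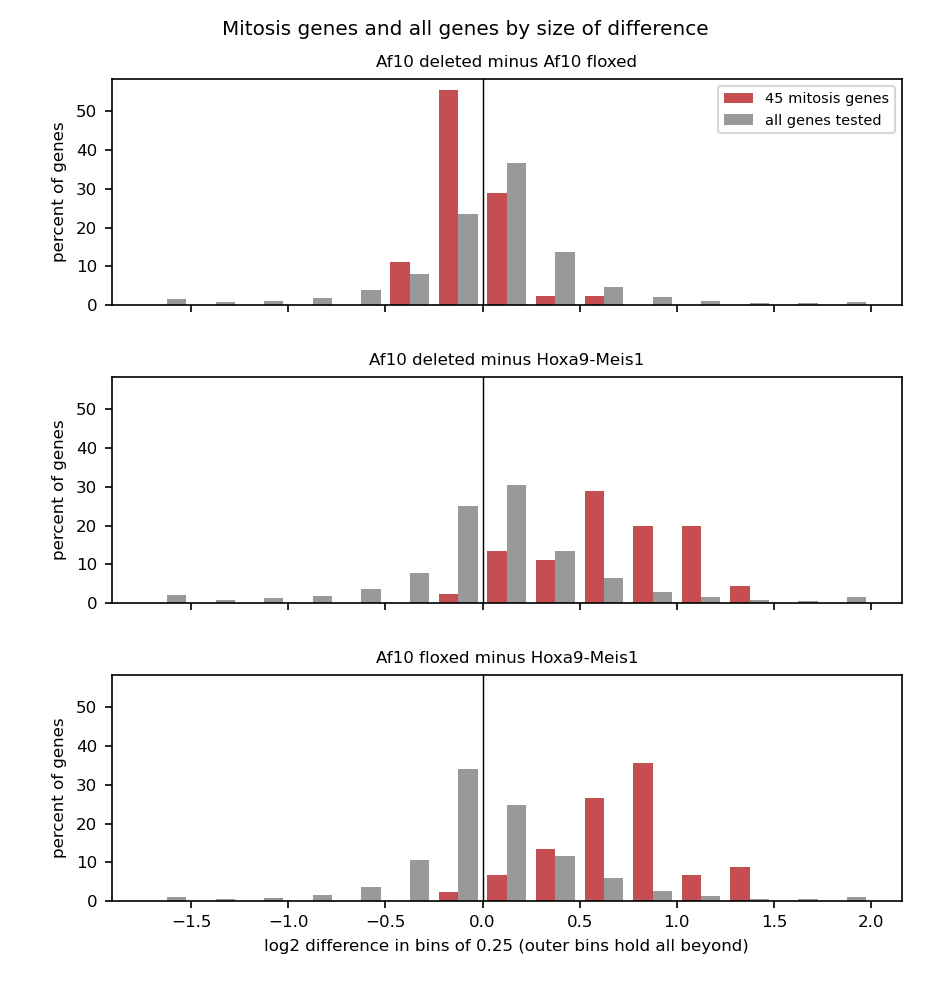
Percent of the 45 mitosis genes (red) and of all genes tested (grey) by log2 difference, in bins of 0.25, for the 3 comparisons. The members centre on -0.07 in the upper panel, and on 0.65 and 0.77 in the middle and lower panels, where all genes stay centred on 0.05 and -0.01.

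No other probe set of the members was called lower, but not all pointed the same way. Against Hoxa9-Meis1 leukemias, 30 members had several probe sets. All of a member's probe sets lay on 1 side of 0 for 23 in Af10 deleted and 22 in Af10 floxed leukemias. Of the 56 other probe sets, 20 and 25 were called higher. The counts over 101 that follow also include the probe set that stood for each gene. Between Af10 deleted and Hoxa9-Meis1 leukemias 50 of 101 probe sets were higher and 0 lower (15.2% of all probe sets with 1 gene symbol called, in either direction), and between Af10 floxed and Hoxa9-Meis1 leukemias 56 were higher and 0 lower (9.16%). Between Af10 deleted and Af10 floxed leukemias 0 of 101 were called (6.51%). With any probe set counted, 34 members were higher in Af10 deleted and 37 in Af10 floxed leukemias, against 11.3% and 7.86% of all genes on the same count. Of the 45 members, 30 had several probe sets, which gives them more chances to be called in this way.

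Genes of mitosis outside the 45 were taken from lists of condensin, kinetochore, checkpoint, anaphase and cohesion, spindle, entry and DREAM genes. Where called against Hoxa9-Meis1 leukemias, they were also mostly higher. Of 103 tested, 32 were higher and 1 lower in Af10 deleted than in Hoxa9-Meis1 leukemias, with a median difference of 0.39. Of all genes, 9.27% were higher and 6.23% lower there, with a median of 0.05. In Af10 floxed leukemias 38 were higher and 0 lower, with a median of 0.50. Of all genes, 5.58% were higher and 3.31% lower there, with a median of -0.01. These shares are also the background of the single lists below. Between Af10 deleted and Af10 floxed leukemias 1 was higher, Anapc2 (0.50, limma adjusted p = 0.0272), and 2 were lower, the cohesin regulator Pds5a (-0.51, limma adjusted p = 0.0297) and the checkpoint gene Zw10 (-0.50, limma adjusted p = 0.0176). These make up 2.91% of the 103, below the 6.85% of all genes called in that comparison. The 1 lower in Af10 deleted than in Hoxa9-Meis1 leukemias was the kinetochore gene Zwint (-0.65, limma adjusted p = 0.0496), named after its value was seen.

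Condensin, which compacts chromosomes, had 4 of 8 genes higher in Af10 deleted than in Hoxa9-Meis1 leukemias, in the order of adjusted p Ncapg2 (1.04), Smc2 (0.52), Ncaph (0.67) and Ncapd3 (0.59). In Af10 floxed leukemias 5 of 8 were higher, led in the same order by Smc2 (0.79), Ncapg2 (1.32), Ncapg (0.72) and Ncaph (0.90). Of 23 other spindle and cytokinesis genes, 10 were higher in Af10 deleted leukemias, led by Dlgap5 (1.13), Depdc1a (1.26), Cep55 (1.14) and Ckap2 (0.70), and 11 in Af10 floxed leukemias, led by Dlgap5 (1.33), Depdc1a (1.42), Cep55 (1.31) and Tacc3 (0.70). Of 20 other kinetochore genes, 7 were higher in Af10 deleted leukemias, led by Nsl1 (0.84), Cenpk (1.44), Ska1 (1.03) and Cenpq (0.92), and 8 in Af10 floxed leukemias, led by Cenpk (1.66), Ska1 (1.22), Nsl1 (0.86) and Oip5 (0.95).

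Of 8 other checkpoint genes, 2 were higher in Af10 deleted leukemias, Trip13 (0.75) and Bub3 (0.53), and 5 in Af10 floxed leukemias, led by Trip13 (0.88), Zw10 (0.52), Bub3 (0.63) and Spdl1 (0.50). Of 14 entry regulators, 6 were higher in Af10 deleted leukemias, led by Wee1 (0.93), Gmnn (0.74), Ccnf (1.01) and Cdc25a (0.65). These include Wee1, which encodes the kinase that inhibits CDK1, and Ccnf, which encodes cyclin F. In Af10 floxed leukemias 5 were higher, led by Cks1b (0.54), Arpp19 (0.54), Mastl (0.89) and Haspin (1.05). Mastl encodes the Greatwall kinase and Arpp19 its substrate. Of 21 genes of the anaphase-promoting complex and cohesion, 1 was higher in Af10 deleted leukemias, the shugoshin Sgo2a (0.98), which shields centromeric cohesion, and 3 in Af10 floxed leukemias, Cdc27 (0.77), Sgo2a (1.05) and Espl1 (0.71). In Af10 deleted leukemias that is 4.76% of the list, below the 9.27% of all genes that were higher. In Af10 floxed leukemias it is 14.3%, above the 5.58% of all genes. Of 9 DREAM and B-Myb genes, Mybl2, which encodes B-Myb, was higher in Af10 deleted leukemias (1.47, limma adjusted p = 0.00258). It differed from Hoxa9-Meis1 leukemias by 0.66 in Af10 floxed leukemias (limma adjusted p = 0.0986) and between the MLL-AF9 groups by 0.82 (limma adjusted p = 0.0577). Lin37 (0.56) was the other gene of that list called in Af10 deleted leukemias and Lin54 (0.91) the 1 called in Af10 floxed leukemias.

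Markers of other cells were read beside these results, and those called are named. Of all genes, 6.85% were called between Af10 deleted and Af10 floxed leukemias. Against Hoxa9-Meis1 leukemias, 15.5% were called in Af10 deleted and 8.89% in Af10 floxed leukemias. These shares are the background of every marker list below. Of 10 erythroid markers, 1 was higher (Klf1) and 1 lower (Gata1) in Af10 deleted than in Hoxa9-Meis1 leukemias, 20% of the list, and 0 were called in the other comparisons. Their summed intensity was 2557 to 3050 in Af10 deleted, 2193 to 2702 in Af10 floxed and 2787 to 3067 in Hoxa9-Meis1 leukemias. Of 9 T and NK cell markers, 4 were higher in Af10 deleted than in Af10 floxed leukemias, Gzma (1.56), Cd3e (0.93), Klrd1 (1.13) and Thy1 (1.07). Against Hoxa9-Meis1 leukemias 4 were higher in Af10 deleted leukemias (Cd3e, Gzma, Klrd1 and Cd3d) and 1 lower in Af10 floxed leukemias (Thy1). Summed, this list had 1663 to 3852 in Af10 deleted, 2315 to 4994 in Af10 floxed and 2322 to 4936 in Hoxa9-Meis1 leukemias. Marker by marker, 8 differences between Af10 deleted and Af10 floxed leukemias were above 0 and 1 was below (-1.34), with a median of 0.55. Of 9 B cell markers, Cd79b was lower in Af10 deleted than in Af10 floxed leukemias (-0.75). Most of that list went the other way there, with 6 differences above 0, 3 below and a median of 0.21. Cd79a and Igll1 were higher in Af10 deleted and Cd79b was higher in Af10 floxed than in Hoxa9-Meis1 leukemias. The B cell sums were 1640 to 1789 in Af10 deleted, 2404 to 3603 in Af10 floxed and 1293 to 2596 in Hoxa9-Meis1 leukemias.

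Of 11 late neutrophil markers, Cxcr2 was higher in Af10 deleted than in Af10 floxed leukemias (1.90). Cxcr2 and Lcn2 were higher in Af10 deleted and Csf3r was lower in Af10 floxed than in Hoxa9-Meis1 leukemias, with sums of 90990 to 117784 in Af10 deleted, 62416 to 105927 in Af10 floxed and 71475 to 96114 in Hoxa9-Meis1 leukemias. Of 8 stromal and endothelial markers, Pecam1 was lower in Af10 deleted leukemias than in Af10 floxed (-2.12) and Hoxa9-Meis1 leukemias. Between the MLL-AF9 groups 5 of the 8 differed above 0 and 3 below, with a median of 0.09. Cdh5 was higher in Af10 deleted than in Hoxa9-Meis1 leukemias. The sums of that list were 911 to 1244 in Af10 deleted, 1659 to 2419 in Af10 floxed and 1542 to 2658 in Hoxa9-Meis1 leukemias. Of 10 myeloid leukemia cell markers, Csf2ra was higher (0.93) and Kit lower (-0.96) in Af10 deleted than in Af10 floxed leukemias. Cd33 was higher and Kit lower in Af10 deleted than in Hoxa9-Meis1 leukemias, and Cd33 was higher and Cebpa lower in Af10 floxed than in Hoxa9-Meis1 leukemias, with sums of 55141 to 59214 in Af10 deleted, 39844 to 54752 in Af10 floxed and 52924 to 56347 in Hoxa9-Meis1 leukemias. The part of these cells, of sorting and of RNA integrity in the higher mitosis gene levels was not tested.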

How the data were processed

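Per the labels' protocols, biotinylated cRNA from 100 ng of total RNA was hybridised, 1 array a sample. The deposited intensity values were made by the authors with RMA, per the submitters' processing notes; no version is given in the sources used here. They ranged from 4.60 to 32082 with array medians of 146 to 156, which is a linear and not a log scale, and were turned into log2(value + 1). Differences are on that scale, which understates those of dim genes.

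Of 45101 probe sets, 34958 had 1 gene symbol, 932 several and 9211 were not listed; only the first were used. Groups came from the labels, and Hoxa9-Meis1 arrays were numbered in accession order. No pair of arrays was a duplicate (smallest mean absolute difference 0.22). A group-means model was fitted to all 9 arrays with limma 3.58.1 in R 4.3.3, two-sided, with Benjamini-Hochberg adjustment, after the code was tested on simulated data. The number of arrays limits the precision. Motifs were counted in RefSeq promoter windows of GRCm38.p6. Alternatives were another pseudocount, a filter on dim genes, probe set choice, quantile normalization, array weights, other variance models, the replicate block and arrays left out.

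The members, gene lists and the rule for named genes were chosen with earlier results of these arrays known. Per-array values are given for called members up to the 12 lowest adjusted p per comparison, for the largest difference per role and comparison, and for 14 listed genes. Of the other mitosis and replication lists, genes called are named, at most 4 a list and comparison by adjusted p, with Zwint added after its value was seen.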

Additional observations from a re-analysis of the deposited data

How the results depend on the processing

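The absence of calls between Af10 deleted and Af10 floxed leukemias held under every alternative tried except a log2(value + 32) scale and averaging the probe sets of each gene, each of which called 1 member, Cenpa, lower. Leaving out single arrays gave 0 called in each case, with medians of -0.12 to -0.03, where 3.55% to 6.86% of all genes were called. Between Af10 floxed and Hoxa9-Meis1 leukemias the count of higher members was 18 to 31 when single arrays were left out, with medians of 0.68 to 0.86. It was lowest without Hoxa9-Meis1 replicate 1 (3.74% of all genes then called in either direction) and highest without deleted replicate 6 (9.14%). Under the other alternatives the count was 26 to 37. Over all 101 probe sets of the members, and not over genes, the median difference there was 0.63. Between Af10 deleted and Hoxa9-Meis1 leukemias the count was 23 to 31 with single arrays left out, with medians of 0.61 to 0.72, and 27 to 34 otherwise. With single arrays left out, 8.46% (without Hoxa9-Meis1 replicate 1) to 17.0% (without floxed replicate 5) of all genes were called there in either direction. In Af10 deleted leukemias 19 of 30 called members were called in every alternative, and in Af10 floxed leukemias 16 of 31. No call changed direction. Replicate numbers 4, 5 and 6 are shared by the MLL-AF9 groups, but same-numbered arrays did not deviate together (correlations of 0.03, 0.05 and 0.01), so the numbers were not taken as pairs. With the replicate block 0 of 45 members were called, against 3.29% of all genes. Causes of these shifts were not tested. The number of arrays and the compression of dim signals by background limit what differences can be seen.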

Other observations

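DNA replication genes, which act in S phase before mitosis, were read beside the mitosis genes. Of 23 tested, 10 were higher in Af10 deleted and 6 in Af10 floxed leukemias than in Hoxa9-Meis1 leukemias, 0 were lower, and the median differences were 0.39 and 0.45. Of all genes, 9.27% and 5.58% were higher in these comparisons, with medians of 0.05 and -0.01. Gins2, a subunit of the replicative helicase, was higher by 0.93 in Af10 deleted (limma adjusted p = 0.000621) and by 0.65 in Af10 floxed leukemias (limma adjusted p = 0.00673). Rfc3, a subunit of the clamp loader, was higher by 0.67 in Af10 deleted and 0.69 in Af10 floxed leukemias. Next by adjusted p were Cdc45 (0.91) and Tk1 (0.86) in Af10 deleted leukemias, and Mcm7 (0.64) and Rrm2 (0.59) in Af10 floxed leukemias. The sliding clamp gene Pcna averaged 13.26 in Af10 deleted, 13.24 in Af10 floxed and 13.22 in Hoxa9-Meis1 leukemias and was not called. Between Af10 deleted and Af10 floxed leukemias 0 of 23 were called, with a median difference of 0.03, and 3 had an unadjusted p under 0.05. Of all genes, 6.85% were called there and 22.1% had an unadjusted p under 0.05.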
